A study of Mus musculus with 13 samples.

Results

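The genes examined here were 10 transcription regulators that promote or accompany the formation of glia: the SoxE genes Sox8 and Sox9, the nuclear factor I genes Nfia, Nfib, Nfic and Nfix, and the inhibitor of DNA binding genes Id1, Id2, Id3 and Id4. They were picked by name from the 35734 genes of the authors' deposited comparison table, and all 10 passed the filter on low counts among 15584 genes tested. Their RNA levels were compared between 4 control and 4 Ikzf1 RNA-seq libraries of mouse retinal cells. Retinas of CD1 mice, an outbred stock, were dissociated at postnatal day 0, transfected, kept in culture for 9 h and sorted for GFP fluorescence. The control cells had received GFP alone, with 400000 sorted cells per biological replicate. The other cells had received Ikzf1-IRES-GFP, a construct in which Ikzf1 and GFP share 1 transcript, with 300000 sorted cells per biological replicate. The labels give no genotype beyond the CD1 strain, which both groups share. The sort was on GFP and not on a progenitor marker, although the labels call the cells retinal progenitor cells. How many animals gave a replicate, their sex and the promoter of the plasmid used for RNA-seq were not given in the sources used here.

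Ikaros, the product of Ikzf1, is a zinc finger transcription factor of the blood lineages that retinal progenitors also use early, when the early-born neurons are made. Around birth, retinal progenitors make rod photoreceptors, bipolar cells, some amacrine cells and, last, Müller glia, the main glial cell of the retina. SoxE proteins bind DNA through an HMG box and are used by progenitors and Müller glia. NFI proteins bind DNA at paired TTGGC elements and are known to restrict late progenitors towards leaving the cell cycle and towards late fates, glia included. Id proteins have a helix-loop-helix but no DNA-binding region: they hold E proteins away from the proneural partners that drive neuron formation, and their genes are classical targets of BMP signalling through the SMAD1, SMAD5 and SMAD9 proteins.

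Depth was 21.4 to 30.5 M estimated read pairs per library. The transfected gene matched the labels in all 8: reads of Ikzf1 were 0.00725 to 0.00912% of the reads in the control libraries and 15.9 to 17.2% in the Ikzf1 libraries, plasmid transcripts included. All 12 retinal progenitor markers examined were expressed, with summed levels of 2270 to 2390 CPM (counts per 1000000 reads) in controls and 2140 to 2190 CPM in Ikzf1 libraries. Markers of cells from outside the neural retina were low: the microglia list summed to at most 2.05 CPM in any library, the pericyte list to at most 1.78 CPM and the astrocyte list to at most 7.10 CPM. The pigment epithelium list summed to 8.20 to 9.39 CPM in controls and 3.58 to 5.29 CPM in Ikzf1 libraries, with Rpe65 at 0. Of the endothelial list, Kdr, which retinal progenitors also express, fell from 436 ± 32.9 to 215 ± 18.2 CPM (n = 4 each, SD), while Cdh5 was at an authors' mean of 1.78 normalised counts.

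The sequences before the RefSeq starts of 4 of the genes that differed between the groups are shown first. Of these, 3 belong to 1 family whose members went in opposite directions. No RefSeq promoter was available for the other genes that differed, Sox9, Nfib and Id1. Each line gives the 250 bases before the RefSeq gene start (GRCm38.p6), read 5′ to 3′ on the gene's own strand. The windows are chr12:25096093-25096342 (minus strand) for Id2, chr4:136143572-136143821 (plus strand) for Id3, chr13:48260866-48261115 (plus strand) for Id4 and chr17:25570687-25570936 (minus strand) for Sox8. The authors' table places the start of Sox8 at the same base, and those of Id4, Id3 and Id2 at 112, 325 and 1048 bases from the RefSeq start, so the Id2 and Id3 windows lie inside the gene spans given below. Capitals mark matches on either strand to TGGGAA, a core shared by the sites of Ikaros and of the Notch effector Rbpj, or to GGCGCC, a GC-rich element that SMAD proteins bind.
Id2: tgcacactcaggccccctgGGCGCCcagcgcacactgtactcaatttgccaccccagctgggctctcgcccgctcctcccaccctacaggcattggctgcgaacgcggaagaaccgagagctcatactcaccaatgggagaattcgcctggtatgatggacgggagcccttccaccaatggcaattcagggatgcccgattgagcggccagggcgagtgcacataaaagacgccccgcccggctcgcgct
Id3: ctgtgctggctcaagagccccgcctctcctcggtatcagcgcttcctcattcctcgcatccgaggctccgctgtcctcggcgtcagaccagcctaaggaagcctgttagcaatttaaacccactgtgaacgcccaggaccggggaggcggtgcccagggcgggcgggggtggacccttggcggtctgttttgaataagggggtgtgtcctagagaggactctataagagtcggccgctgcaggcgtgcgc
Id4: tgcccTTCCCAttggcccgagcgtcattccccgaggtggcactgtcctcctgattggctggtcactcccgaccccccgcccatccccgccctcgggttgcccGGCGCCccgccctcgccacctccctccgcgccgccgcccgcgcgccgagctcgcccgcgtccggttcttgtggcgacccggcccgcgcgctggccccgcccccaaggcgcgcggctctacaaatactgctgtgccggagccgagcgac
Sox8: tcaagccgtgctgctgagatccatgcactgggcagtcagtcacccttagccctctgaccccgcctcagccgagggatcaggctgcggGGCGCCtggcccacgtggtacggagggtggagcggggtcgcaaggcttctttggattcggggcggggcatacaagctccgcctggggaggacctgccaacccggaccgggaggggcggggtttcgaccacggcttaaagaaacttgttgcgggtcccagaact

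The RefSeq table held 32851 promoters in all. Of these, 10 belonged to 7 of the 10 genes, 4 of them to Nfix, and none to Sox9, Nfib or Id1. Those of Nfia, Nfic and Nfix start 20262 to 190791 bases from the gene starts in the authors' table. They may not be the promoters of the transcripts measured. TGGGAA was found in 1 of the 10 member promoters, that of Id4, 245 bases upstream, beside 21.6% of all promoters. GGCGCC was found in 4 of the 10, those of Id2, Id4 and Sox8 and 1 of the 4 of Nfix, beside 9.59% of all promoters. Of the 3 Id genes printed above, Id3 held neither. TTGGCA, 1 arm of an NFI site, was matched only before Sox8 (12.3% of all promoters), and the E-box CANNTG, which E proteins bind, in 6 of the 10, those of Id2, Nfia, Nfic and Sox8 and 2 of the 4 of Nfix (66.2% of all promoters). These matches are descriptions of letters, searched on both strands. A TGGGAA match can serve for either of the factors named.

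In the Ikzf1 libraries, 6 of the 10 genes were lower, 1 was higher and 3 did not pass the test. Sox9 fell to 25.8% of its control level, Id3 to 31.5%, Id4 to 54.9%, Sox8 to 64.2% and Nfib to 83.0%, while Id2 rose to 149%. Id1 fell to 81.7% by a call that several alternatives removed, and Nfia, Nfic and Nfix did not pass. The threshold was an edgeR quasi-likelihood adjusted p of 0.05 (Benjamini-Hochberg over all 15584 genes). Under it 59.3% of all tested genes were called, 29.9% of them lower and 29.4% higher as shares of all tested, so 7 calls among 10 genes stand close to the background. In 6 members all 4 Ikzf1 libraries lay on 1 side of all 4 controls, which held for 53.2% of all tested genes. The median log2 fold change of the 10 was -0.28, beside 0.00 over all genes tested. Falls of 1 or more on the log2 scale were called for 2 members, Sox9 and Id3, and for 6.41% of all genes tested. In bulk RNA of sorted cells, a smaller share of cells that express a gene and less RNA per cell cannot be told apart, and this holds for each value below.

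**Figure D1:**
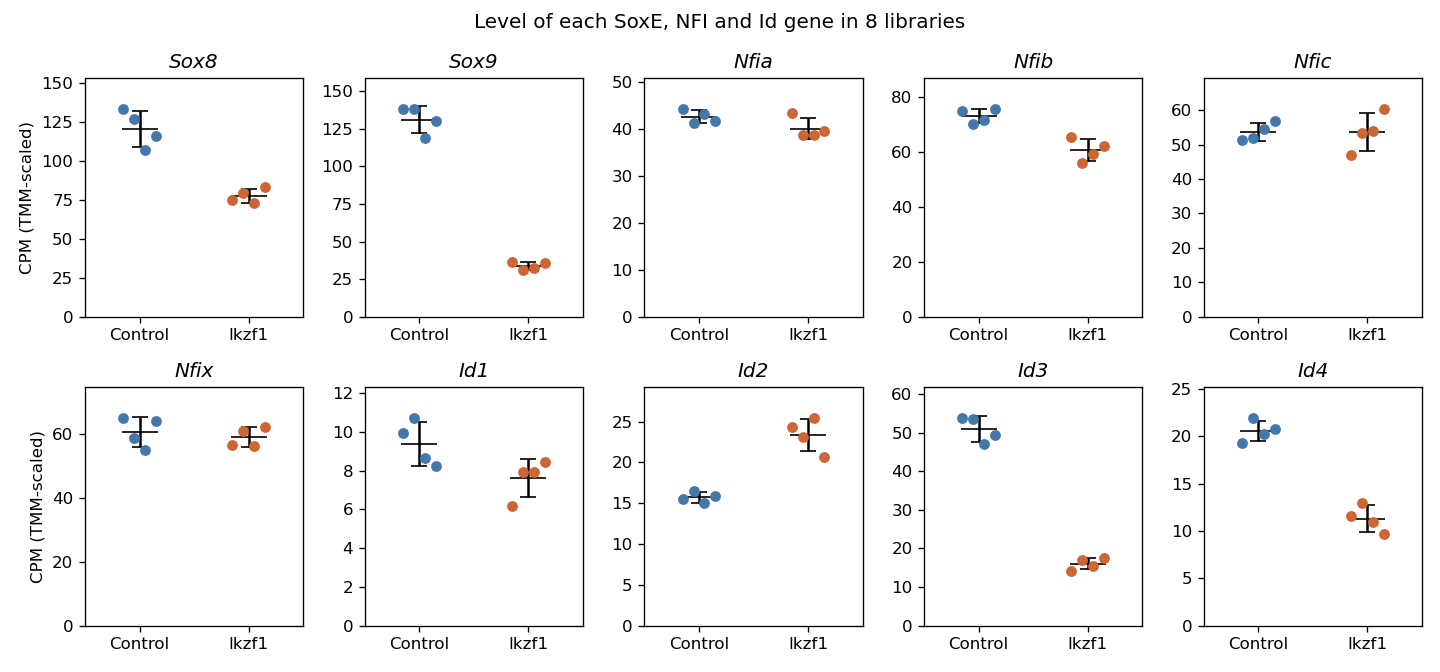
Levels of the 10 genes in CPM (TMM-scaled), each panel with its own linear axis from 0. Points are libraries (4 control, 4 Ikzf1), black bars are means with SD. Sox9, Id3, Id4, Sox8 and Nfib lie lower in every Ikzf1 library than in any control and Id2 lies higher, while the groups of Nfia, Nfic, Nfix and Id1 overlap.

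Among the SoxE genes, Sox9 fell the most. Sox9 (ENSMUSG00000000567, GRCm38 chromosome 11, 112782224 to 112787760, plus strand) is required for Müller glia. It stood at 138, 138, 119 and 130 CPM in control replicates 1 to 4 and at 36.3, 31.2, 32.1 and 35.7 CPM in Ikzf1 replicates 1 to 4. The lowest control was above every Ikzf1 library by a wide margin, and neither group held a library far from its others. The means were 131 ± 9.11 and 33.8 ± 2.56 CPM (n = 4 each, SD), with a log2 fold change of -1.95 (standard error 0.06, edgeR adjusted p 1.36e-20). Ordered from the strongest fall, Sox9 was number 155 of the 15584 genes tested. Its 1 annotated transcript, of 4135 bases, held all of its reads, so no change in the use of transcripts enters this value.

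Sox8 (ENSMUSG00000024176, chromosome 17, 25565892 to 25570686, minus strand), the closest relative of Sox9 expressed here, fell by less. The controls had 133, 127, 107 and 116 CPM and the Ikzf1 libraries 74.7, 79.5, 72.6 and 83.0 CPM. Again all Ikzf1 libraries were below all controls. The means were 121 ± 11.7 and 77.4 ± 4.70 CPM (n = 4 each, SD), and the log2 fold change was -0.64 (standard error 0.06, edgeR adjusted p 1.16e-08). The main transcript of Sox8, of 3000 bases, held 93.0% ± 0.711 of the gene's TPM in controls and 93.6% ± 4.03 in Ikzf1 libraries (n = 4 each, SD). Sox10, the remaining SoxE gene and a marker of neural crest and oligodendrocyte lineages, was at an authors' mean of 0.302 normalised counts and was not tested.

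Of the 4 NFI genes, 1 passed the test. Nfib (ENSMUSG00000008575, chromosome 4, 82290173 to 82705750, minus strand), needed with its relatives for the late-born retinal cells, was that gene. Its controls had 74.9, 70.2, 71.5 and 75.5 CPM and its Ikzf1 libraries 65.3, 55.8, 59.2 and 62.1 CPM, so the groups did not overlap, although Ikzf1 replicate 1 came near the lowest control. From 73.0 ± 2.60 to 60.6 ± 4.04 CPM (n = 4 each, SD), the log2 fold change was -0.27 (standard error 0.05, edgeR adjusted p 6.02e-05).

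Nfia, Nfic and Nfix overlapped between the groups. Nfia (ENSMUSG00000028565, chromosome 4, 97772734 to 98118874, plus strand), known as an early switch to gliogenesis in the spinal cord, had 44.2, 41.3, 43.3 and 41.8 CPM in controls and 43.4, 38.8, 38.7 and 39.6 CPM in Ikzf1 libraries. Of the Ikzf1 libraries, 3 were below all controls and replicate 1 was above 3 of the 4 controls. The log2 fold change was -0.09, with a 95% interval of -0.20 to 0.02 (edgeR adjusted p 0.19). With an offset for mean transcript length Nfia was called, at -0.27 (edgeR adjusted p 0.038), and the authors' deposited table also gave -0.27 (adjusted p 0.0345). The length offset enters because reads of Nfia were split over several transcripts: its mean effective length was 4562 ± 305 bases in controls and 5303 ± 840 bases in Ikzf1 libraries (n = 4 each, SD), with overlap. Of its TPM, the transcript of 851 bases held 23.6% ± 8.40 in controls and 11.3% ± 9.09 in Ikzf1 libraries, that of 821 bases 31.3% ± 6.90 and 35.3% ± 7.44, and that of 9526 bases 32.3% ± 9.99 and 45.2% ± 11.3, and these shares were not tested. Nfia also overlaps E130114P18Rik on the opposite strand, which went from a mean of 20.8 to 12.7 CPM. The labels name a stranded kit but not whether counting used strand, so reads of this pair may be mixed.

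Nfic (ENSMUSG00000055053, chromosome 10, 81396186 to 81455635, minus strand) had 53.6 ± 2.53 CPM in controls and 53.7 ± 5.39 CPM in Ikzf1 libraries (n = 4 each, SD). The 95% interval of its log2 fold change ran from -0.12 to 0.12 (edgeR adjusted p 0.986). Its highest and its lowest value, 60.2 and 47.0 CPM, were both from Ikzf1 libraries. Nfix (ENSMUSG00000001911, chromosome 8, 84699876 to 84800344, minus strand) had 60.6 ± 4.6 and 58.9 ± 3.04 CPM, with an interval of -0.15 to 0.07 (edgeR adjusted p 0.555). For these 2 genes the intervals exclude changes of the size seen in Sox8 or in Id2. They do not show that the genes did not change.

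The Id genes split. Id3 (ENSMUSG00000007872, chromosome 4, 136143497 to 136145755, plus strand) was the family member with the strongest fall. The controls had 53.7, 53.6, 47.0 and 49.5 CPM and the Ikzf1 libraries 14.2, 16.9, 15.5 and 17.4 CPM. Every control was more than 2 times as high as every Ikzf1 library. The means were 50.9 ± 3.27 and 16.0 ± 1.42 CPM (n = 4 each, SD), and the log2 fold change was -1.67 (standard error 0.07, edgeR adjusted p 6.49e-18). The gene took place 280 of 15584 when ordered by fall.

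Id4 (ENSMUSG00000021379, chromosome 13, 48261228 to 48266026, plus strand) also fell. Its protein has been described as able to oppose the other Id proteins by binding them. Its controls had 19.3, 21.9, 20.3 and 20.8 CPM and its Ikzf1 libraries 11.6, 13, 11 and 9.64 CPM, with no overlap. The means were 20.6 ± 1.07 and 11.3 ± 1.42 CPM (n = 4 each, SD), a log2 fold change of -0.86 (standard error 0.09, edgeR adjusted p 1.71e-09).

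Id2 (ENSMUSG00000020644, chromosome 12, 25093799 to 25097140, minus strand) went the other way. The controls had 15.5, 16.5, 15.0 and 15.9 CPM and the Ikzf1 libraries 24.3, 23.1, 25.4 and 20.7 CPM. All Ikzf1 libraries were above all controls, and the controls were close to each other. The means were 15.7 ± 0.629 and 23.4 ± 2.04 CPM (n = 4 each, SD), and the log2 fold change was 0.57 (standard error 0.08, edgeR adjusted p 2.79e-07).

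Id1 (ENSMUSG00000042745, chromosome 2, 152736251 to 152737410, plus strand), the gene in which the BMP response element was classically mapped, had the fewest reads of the 10, with 146 to 251 per library. Its controls had 9.94, 10.7, 8.64 and 8.24 CPM and its Ikzf1 libraries 6.18, 7.93, 7.93 and 8.47 CPM. The highest Ikzf1 library was above the lowest control. The log2 fold change was -0.29 (standard error 0.12, edgeR adjusted p 0.0336). The call was lost without Ikzf1 replicate 1 (-0.20, edgeR adjusted p 0.145), without control replicate 1 (0.0793) or 2 (0.139), with the length offset (0.0872) and with the replicate number as a block (0.0503). The authors' deposited table gave -0.28 (adjusted p 0.112).

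**Figure D2:**
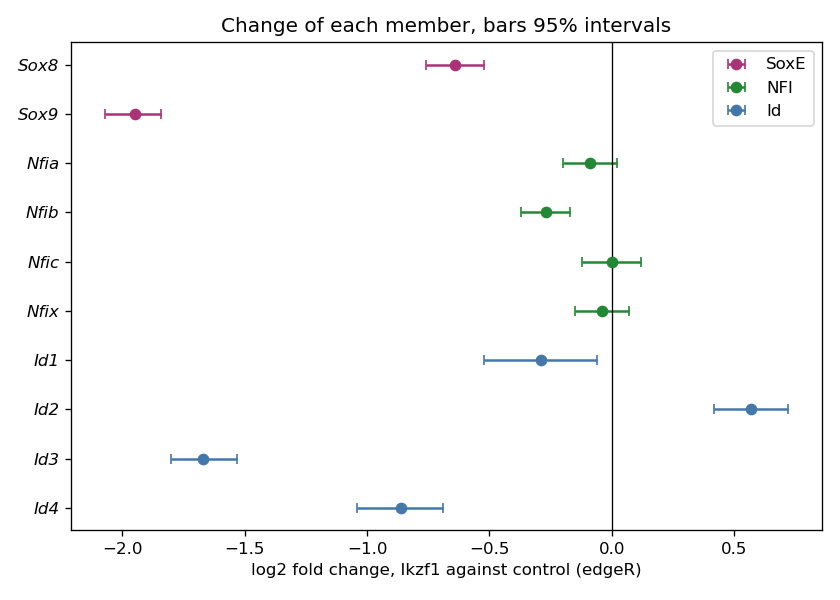
Log2 fold change of each gene, Ikzf1 against control (edgeR), with bars of 95% intervals, coloured by family. Sox9 at -1.95 and Id3 at -1.67 lie farthest to the left, Id2 at 0.57 is the 1 gene to the right of 0 by more than its bar, and the bars of Nfia, Nfic and Nfix cross 0.

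The authors' deposited table also called 7 of the 10 genes, where it called 41.8% of its 19121 genes with an adjusted p. The lists differed by 1 gene on each side, with Nfia called there and Id1 called here. For the genes called in both, the authors' deposited table gave log2 fold changes of -0.62 for Sox8, -1.92 for Sox9, -0.36 for Nfib, 0.57 for Id2, -1.67 for Id3 and -0.83 for Id4.

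To set the genes against each other, levels were taken per length, as TPM (transcripts per 1000000 transcripts). Because the plasmid's Ikzf1 transcripts took part of the total in the Ikzf1 libraries, TPM was rescaled to the same total after Ikzf1 was taken out. As deposited, the median log2 difference of all tested genes was -0.22, and after rescaling it was 0.06. In the controls Id3 (89.8 ± 5.21 TPM) and Sox8 (85.2 ± 7.97 TPM) were highest and overlapped, and Sox9 followed at 62.5 ± 4.00 TPM, apart from its neighbours (SD, n = 4). Next were Nfix at 30.9 ± 2.43 and Id2 at 27.2 ± 1.07 TPM, which overlapped. Id1 at 22.7, Nfic at 22.4, Nfib at 20.6 and Nfia at 17.8 TPM formed a chain in which each overlapped the next, and Id4 was lowest at 10.6 ± 0.595 TPM.

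In the Ikzf1 libraries the order was led by Sox8 at 57.4 ± 4.93 TPM, then Id2 at 42.3 ± 3.38 and Nfix at 32.6 ± 0.482 TPM, each apart from the next (SD, n = 4). From Id3 at 29.0 TPM through Nfic at 25, Id1 at 19.3, Sox9 at 16.9 and Nfib at 16.7 to Nfia at 15.3 TPM, each gene overlapped its neighbour. Id4 was again lowest, at 6.09 ± 0.734 TPM. Id3 went from the first place to the fourth, Sox9 from the third to the seventh, and Id2 from the fifth to the second.

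Summed over members, SoxE went from 148 ± 11.8 to 74.3 ± 5.54 TPM, or 50.3% of the control, with 132 to 158 TPM in controls and 67.0 to 80.3 TPM in Ikzf1 libraries. Id went from 150 ± 8.06 to 96.8 ± 4.19 TPM, or 64.4% of the control, also without overlap. NFI stood at 91.7 ± 5.26 and 89.6 ± 3.45 TPM, with ranges of 86.2 to 98.9 and 87.1 to 94.7 TPM (n = 4 each, SD). On TPM as deposited the log2 difference of NFI was -0.32 in place of -0.03, beside the shift of -0.22 in all genes on that scale. No p is given for these totals, because the members were chosen with results known.

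The make-up of the SoxE and Id totals differed between the groups. Of the SoxE total, Sox9 made 42.4% ± 0.931 in controls and 22.8% ± 1.59 in Ikzf1 libraries (n = 4 each, SD). Of the Id total, Id3 made 59.7% ± 1.21 and then 29.9% ± 2.26, while Id2 made 18.1% ± 0.566 and then 43.8% ± 3.89, so the leading Id transcript was Id3 in controls and Id2 in Ikzf1 libraries. The share of Id4 overlapped, at 7.03% ± 0.460 and 6.30% ± 0.763. All 4 NFI shares overlapped between the groups, with Nfix the largest at 33.7% ± 3.40 and 36.4% ± 1.5.

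**Figure D3:**
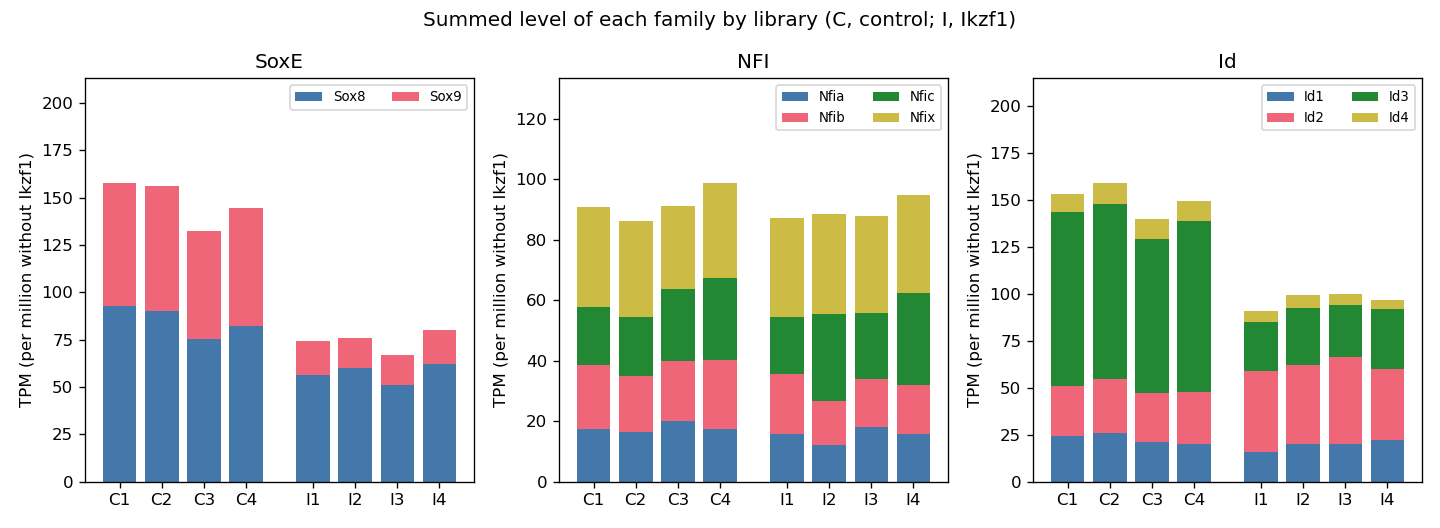
Stacked bars of TPM per library (C1 to C4, control; I1 to I4, Ikzf1), rescaled after Ikzf1 was taken out, 1 panel per family with its own axis from 0. The SoxE and Id bars are lower in all Ikzf1 libraries, the NFI bars overlap, and Id2 takes the place of Id3 as the largest part of the Id bars.

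Whether relatives changed by different amounts was tested within libraries, as the log2 ratio of the reads of 2 members, for all 13 pairs within the families. The ratio itself depends on gene length, so only its difference between the groups is read. Of the 13, 8 pairs separated the groups fully and had the smallest p that 4 against 4 allows (exact permutation test, two-sided, p 0.0286, adjusted over the 13 pairs 0.0464). The ratio of Sox8 to Sox9 was higher by 1.32 on the log2 scale in the Ikzf1 libraries, from -0.12 ± 0.05 to 1.20 ± 0.13 (n = 4 each, SD). All 6 Id pairs were among the 8, but they are ratios among the same 4 genes and are not independent. Because the members were chosen with results known, these p-values only describe how fully the groups separated. Id2 to Id3 differed most, from -1.69 ± 0.07 to 0.55 ± 0.24, a difference of 2.24. Id2 to Id4 differed by 1.44 and Id1 to Id3 by 1.37, while Id3 to Id4 fell by 0.80, Id1 to Id2 fell by 0.87 and Id1 to Id4 rose by 0.57.

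Among the NFI genes only Nfia to Nfib was among the 8, with a difference of 0.18. The nearest of the other 5 pairs was Nfib to Nfix, at -0.23 (exact permutation test, p 0.0571, adjusted 0.0825). With so few libraries the adjusted value can pass only when at least 8 of the 13 pairs reach the smallest p. It did not on TPM, where Nfia to Nfib differed by 0.09 and the other 7 pairs had an adjusted p of 0.0531, nor without any 1 of the control libraries, where the adjusted p of the 8 pairs was 0.0531 to 0.0929. In all of these the direction of each of the 8 pairs was the same. Leaving a library out cannot undo a full separation of the read ratios, so the lost calls are not a loss of separation.

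**Figure D4:**
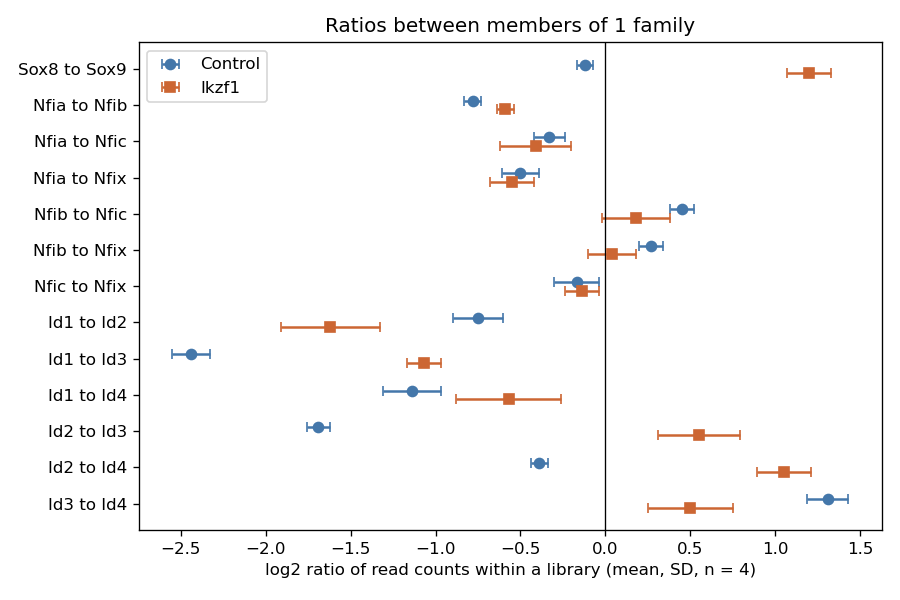
Mean log2 ratio of read counts between 2 members of a family within a library (circles, control; squares, Ikzf1; bars, SD, n = 4 each). Id2 to Id3 moves from -1.69 to 0.55 and Sox8 to Sox9 from -0.12 to 1.20, while the bars of Nfia to Nfic, Nfia to Nfix and Nfic to Nfix overlap clearly.

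Genes that act with the members were taken from 9 lists of 79 genes in all, of which 68 were tested. Of these, 18 were higher, 28 lower and 22 did not pass, with a median log2 fold change of -0.10, beside 59.3% called and a median of 0.00 over all genes. The closest relatives, the other Sox genes, split evenly, with 5 of 11 higher and 5 lower. Sox2, a progenitor factor of the SoxB1 group that can partner with other Sox proteins, fell from 160 ± 5.40 to 113 ± 3.73 CPM (n = 4 each, SD, edgeR adjusted p 4.04e-11). The SoxC gene Sox4 rose from 510 ± 23.4 to 729 ± 15.9 CPM (edgeR adjusted p 3.82e-11), and its relative Sox11 fell from 419 ± 12.7 to 320 ± 6.11 CPM (edgeR adjusted p 3.01e-09).

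Of the 3 genes of E proteins, which Id proteins bind, 2 were higher and none was lower. Tcf12 rose from 382 ± 9.81 to 500 ± 8.76 CPM (n = 4 each, SD, edgeR adjusted p 3.64e-09) and Tcf4 from 251 ± 7.79 to 283 ± 15.9 CPM (edgeR adjusted p 0.00131). Tcf3 stood at 127 ± 10 and 143 ± 14.5 CPM (edgeR adjusted p 0.0597).

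Of 9 tested genes of tissue-specific bHLH proteins, which pair with E proteins, 5 were lower, 1 was higher and 3 did not pass. Atoh7, needed for ganglion cells, fell from 31.6 ± 1.33 to 14.2 ± 0.994 CPM (n = 4 each, SD, edgeR adjusted p 5.34e-14). Bhlhe22, a gene of amacrine and bipolar subtypes, was the 1 that rose, from 51.2 ± 2.82 to 87.5 ± 2.82 CPM (edgeR adjusted p 1.32e-13). Neurod1 had 318 ± 26.3 and 302 ± 20.2 CPM (edgeR adjusted p 0.249).

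The BMP pathway, which drives Id genes, showed no common direction: of 24 genes tested, 8 were higher, 8 lower and 8 not called. Among 4 ligands, Bmp2 rose from 6.56 ± 1.24 to 13.9 ± 0.972 CPM (n = 4 each, SD, edgeR adjusted p 3.06e-09) and Bmp7 from 1.41 ± 0.303 to 2.49 ± 0.537 CPM (edgeR adjusted p 0.00303). Bmp4 fell from 1.42 ± 0.670 to 0.188 ± 0.150 CPM (edgeR adjusted p 6.66e-06). Bmp4 and Bmp7 were at a level of few reads, and the groups of Bmp7 overlapped. Among 7 receptors 5 were lower and 1 higher, and the type I receptor Acvr1 fell from 42.1 ± 1.43 to 21.0 ± 0.743 CPM (edgeR adjusted p 2.64e-14).

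Of the SMADs, Smad1 fell from 50.6 ± 1.78 to 36.9 ± 1.80 CPM (n = 4 each, SD, edgeR adjusted p 4.01e-08), whereas Smad5, Smad9 and the common partner Smad4 were higher, with log2 fold changes of 0.11, 1.16 and 0.15. Smad9 was at a level of few reads, 0.740 ± 0.0938 and 1.67 ± 0.273 CPM, beside 183 ± 4.68 and 198 ± 6.48 CPM for Smad5. Of 9 inhibitors 2 were higher, 1 lower and 6 not called. The pseudoreceptor Bambi rose from 9.43 ± 0.906 to 17.0 ± 0.739 CPM (edgeR adjusted p 2.54e-09) and the ubiquitin ligase Smurf1 from 79.0 ± 2.35 to 129 ± 10.3 CPM (edgeR adjusted p 9.95e-13). Smad6 and Smad7, which BMP signalling itself induces along with Id1 and Id3, did not pass, at 1.10 ± 0.291 and 1.03 ± 0.191 CPM for Smad6 and 43.0 ± 2.96 and 39.4 ± 2.53 CPM for Smad7 (edgeR adjusted p 0.808 and 0.0808).

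Of 11 other factors of gliogenesis, 6 were lower, 1 was higher and 4 were not called. Notch1, the receptor that upholds progenitors and glial fate and lies upstream of Sox9 and Nfia in other tissues, fell from 517 ± 17.8 to 295 ± 20.7 CPM (n = 4 each, SD, edgeR adjusted p 1.43e-14). Its DNA-binding partner Rbpj fell from 146 ± 2.15 to 102 ± 3.61 CPM (edgeR adjusted p 1.44e-11) and its target Hes1 from 27.5 ± 2.37 to 12.3 ± 0.636 CPM (edgeR adjusted p 3.59e-13). Hey1 rose from 16.3 ± 1.64 to 28.3 ± 1.44 CPM (edgeR adjusted p 4.05e-10). Lhx2, which is needed for Müller glia, had 101 ± 4.68 and 102 ± 4.90 CPM (edgeR adjusted p 0.937), and Hes5 had 13.2 ± 1.67 and 12.3 ± 2.38 CPM (edgeR adjusted p 0.501).

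Of 11 tested genes of Müller glia, 5 were lower, 1 higher and 5 not called. Vim, an intermediate filament gene of progenitors and Müller glia, fell from 1590 ± 107 to 718 ± 56.2 CPM (n = 4 each, SD, edgeR adjusted p 3.01e-15), and Rlbp1, a retinoid carrier gene that Sox9 can activate, from 14.7 ± 0.660 to 11.8 ± 2.02 CPM (edgeR adjusted p 0.00916). The glutamate transporter gene Slc1a3 rose from 201 ± 9.55 to 248 ± 15.1 CPM (edgeR adjusted p 2.40e-06). Glul had 199 ± 8.5 and 209 ± 2.53 CPM (edgeR adjusted p 0.143), and Aqp4, a gene of mature Müller glia, was at an authors' mean of 1.27 normalised counts. The summed level of the list was 2240 to 2550 CPM in controls and 1390 to 1550 CPM in Ikzf1 libraries. Vim, at more than any other gene of the list, made up most of the difference between these sums. The sum therefore does not speak for the other genes of the list.

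Retinal progenitor markers also differed between the groups, with 6 of 12 lower and 3 higher. Ccnd1 fell from 427 ± 19.4 to 222 ± 9.53 CPM (n = 4 each, SD, edgeR adjusted p 1.45e-16), while Pax6 rose from 357 ± 6.62 to 444 ± 11.4 CPM (edgeR adjusted p 1.28e-07). Over all tested genes 29.9% were called lower and 29.4% higher. Of the neuron markers, all 4 rod genes were lower, with sums of 295 to 341 CPM against 144 to 170 CPM. All 3 tested ganglion cell genes were higher, with sums of 21.0 to 27.0 CPM against 52.0 to 57.5 CPM. Of these 3, Isl1 overlapped between the groups (9.53 ± 1.26 and 12.5 ± 1.62 CPM). Pou4f2, also on the ganglion cell list, was not tested, at an authors' mean of 6.12 normalised counts. Of the bipolar list both tested genes were lower, with sums of 296 to 344 CPM against 220 to 252 CPM. Most of the bipolar sum was Otx2 (315 ± 19.6 and 236 ± 13.4 CPM), beside Cabp5 at 2.93 ± 0.400 and 1.73 ± 0.245 CPM. Vsx1 and Grm6 were not tested, at authors' means of 0.663 and 0.316 normalised counts. Of the amacrine and horizontal list 1 of 3 tested genes was lower and none higher, with overlapping sums of 164 to 214 CPM and 177 to 210 CPM. The part of any shift in cell types in the changes of Sox9, Sox8, Nfib and the Id genes was not tested.

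**Figure D5:**
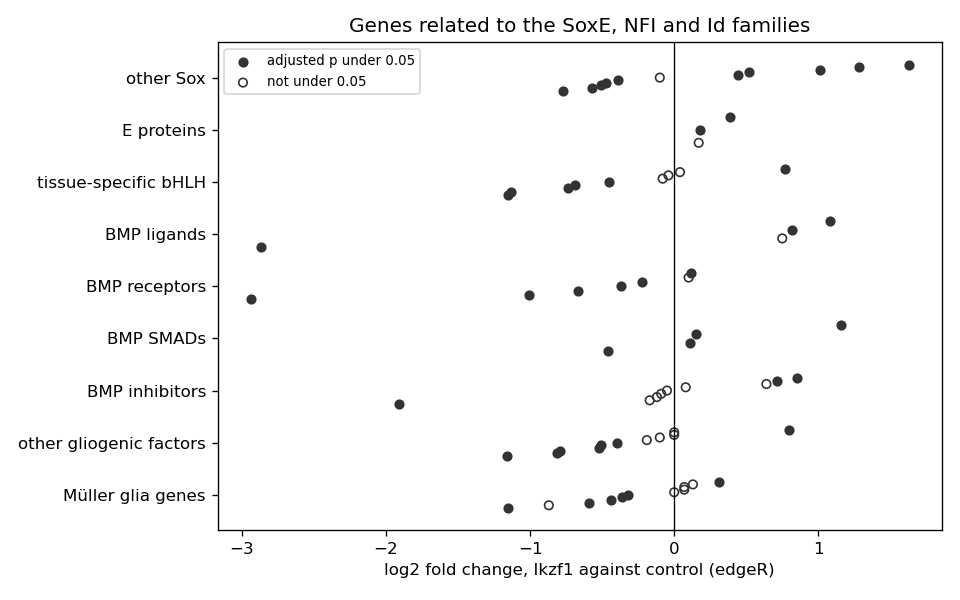
Log2 fold change, Ikzf1 against control (edgeR), of the tested genes in 9 lists related to the 3 families. Each point is a gene, filled where the adjusted p is under 0.05, and the vertical spread within a list only separates points. Other Sox genes and the BMP lists lie on both sides of 0, and 6 of 11 other gliogenic factors are filled points to the left.

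For the most abundant member of each family by CPM, the 3 genes with the nearest pattern over the 8 libraries were found, as the distance between centred log2 CPM values. For Sox8 they were Klhl20 (distance 0.160), Fam181b (0.169) and Coro2b (0.182), with log2 fold changes of -0.62, -0.61 and -0.70. For Nfib they were Dpysl3 (distance 0.0537), Stx12 (0.0970) and Mmachc (0.109), with log2 fold changes of -0.26, -0.28 and -0.23. For Id3 they were Gad1 (distance 0.207), Inf2 (0.229) and Psrc1 (0.244), with log2 fold changes of -1.59, -1.72 and -1.53. Members of the 3 families were left out of this search. It therefore does not show whether members share a pattern.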

How the data were processed

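RNA-seq data of 8 libraries were used, grouped by sample title, and the labels call the 4 per group biological replicates. Per the file headers and the submitters' processing notes, the authors made estimated counts of read pairs and TPM values per transcript with Salmon, and the deposited effective lengths gave the mean gene lengths. The authors' deposited DESeq2 table held, per gene, the mean signal as normalised counts, a log2 fold change with its standard error and an adjusted p-value. Salmon's version, index and strand setting were not given in the sources used here. Gene coordinates are those of the authors' table, taken as GRCm38 because the notes name mm10 beside mm9. Of the 4 genes whose promoters are printed, the starts there lie 0 to 1048 bases from those in RefSeq GRCm38.p6. For Nfia the starts are 190791 bases apart, for Nfic 28462, and for the 4 RefSeq starts of Nfix 20262 to 27469.

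The transcript files name no genes. Each gene was joined to the run of neighbouring transcripts whose summed estimated counts give its deposited mean (relative tolerance 5e-09). Among 16815 genes whose mean reached 5, 16627 (98.9%) were joined, holding 99.7 to 99.8% of the reads. Moved means matched for 0.488% of genes, and 100% of the genes joined in a simulated table were true.

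Counts were summed, rounded, filtered with filterByExpr, scaled by TMM and compared with the edgeR 4.0.16 quasi-likelihood test (two-sided, R 4.3.3), adjusted over 15584 genes. The standard error is the absolute log2 fold change over the square root of F. On counts simulated for this comparison (15582 genes tested), edgeR recovered 97% of 200 changed genes, with 4.9% of 204 calls false. The simulation changed far fewer genes than were called here and used a common dispersion for all genes. It did not give Ikzf1 its large share of reads in the Ikzf1 group only. It held no changes as small as those of Nfib and Id1, so it does not show how well such changes are called. Pair ratios used a pseudocount of 0.5 reads. Alternatives were DESeq2 1.42.0, other size factors, no filter, a length offset, Ikzf1 left out, each library left out and a replicate block.

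All 10 members were named. From the lists, genes with a mean of at least 20 CPM and a called change of at least 1 on the log2 scale could be named, as could genes whose products bind, regulate or are regulated by a member. Sox4, Sox11, Bhlhe22, Neurod1, Hey1, Hes5, Lhx2, Slc1a3, Glul, Aqp4, Ccnd1, Pax6, Cdh5 and Rpe65 were named as examples after their values were seen. The same holds for Otx2, Cabp5, Vsx1, Grm6, Isl1 and Pou4f2. Members and lists were chosen with earlier results of these data known. The peak lists, on mm9, were not used here.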

Additional observations from a re-analysis of the deposited data

How the results depend on the processing

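Under the 14 alternatives of the fit, the log2 fold changes of Sox8 (-0.69 to -0.59), Sox9 (-2.0 to -1.91), Nfib (-0.37 to -0.23), Id2 (0.53 to 0.63), Id3 (-1.71 to -1.61) and Id4 (-0.93 to -0.79) kept their direction and their side of the threshold. Id1 (-0.35 to -0.20) lost its call under 5 and Nfia gained one under the length offset, as given above. Nfic, near 0, was negative without the filter (-0.00175), with the replicate block (-0.00246) and without control replicates 1 and 2 or Ikzf1 replicate 4 (range with a library left out, -0.06 to 0.06), and Nfix was positive with the length offset (0.02). From 7872 (length offset) to 9313 genes (no filter) were called, beside 9244 as reported, and 8658 to 9044 with a library left out. The related lists held 44 to 48 called genes under the same alternatives, a check added after the data were seen.

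The number of pairs of relatives past the threshold was 0 on TPM and 0 to 10 with a library left out, with 0 for each control because too few pairs reach the smallest p. With a library left out, Nfic to Nfix ranged from -0.02 to 0.09 and Nfia to Nfix from -0.11 to 0.00445, and Nfib to Nfic (-0.37) and Nfib to Nfix (-0.29) passed without Ikzf1 replicate 1 (exact permutation test, adjusted p 0.0371). Log2 differences of the totals were -1.28 for SoxE, -0.32 for NFI and -0.92 for Id on TPM as deposited, and -1.18 for SoxE and -0.73 for Id as sums of CPM.

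The replicate numbers did not pair the libraries: same-numbered libraries had correlations of -0.06 to 0.01, and 0 of 4 controls correlated best with their own number. With the number as a block, 8918 genes and 6 members were called. Id1 had the fewest reads of the 10 genes, 146 to 251 per library, and the widest interval of its fold change.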
